A study of Mus musculus with 3 samples.

Results

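The fibroblast growth factor (FGF) and insulin-like growth factor (IGF) genes were examined in the mouse utero-tubular junction, where the uterus opens into the oviduct and which sperm pass on their way to the egg. The genes were taken by name: every non-control probe whose gene name in the array files was an Fgf or an Fgfr followed by a digit, Igf1, Igf2, Igf1r, Igf2r or an Igfbp. This gave 71 of 41174 probes, for 39 of 27672 gene names. The 39 were 21 FGF ligands, 4 FGF receptors, 2 IGF ligands, 2 IGF receptors, 7 IGF binding proteins (Igfbp1 to Igfbp7), the binding protein-like gene Igfbpl1, and Fgfr1op and Fgfr1op2. The last pair carry the receptor's name because human translocations fuse them to FGFR1, and they are not receptors. Tissue came from adult CD-1 females in estrus in 3 groups: unmated controls, mates of vasectomized males and mates of normal males. Each group was 1 pool of total RNA from 10 females on 1 single-colour Agilent array. Seminal fluid of a vasectomized male holds no sperm, and the comparisons thus address mating with and without sperm. The mated pools also differ in the males used, so a difference between them cannot be assigned to sperm alone. No label gives the time from mating to tissue collection. With a single array for each group and no replicates, every ratio below compares 2 pools, with no error between animals and no p-value.

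FGFs are secreted ligands that bind heparan sulphate and signal through receptor tyrosine kinases, FGFR1 to FGFR4. Fgf7 and Fgf10 are made by mesenchyme and act on the epithelial form of FGFR2. IGF1 and IGF2 signal through IGF1R. IGF2R, the mannose 6-phosphate receptor, takes IGF2 up for degradation, and the binding proteins IGFBP1 to IGFBP6 hold IGFs in tissue fluid and limit or prolong their action. Uterine Igf1 is a classical oestrogen response, and in the human uterus IGFBP1 is a marker of decidualising stroma.

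The 3 arrays differed in brightness. The 75th percentile of the processed signal over non-control probes was 874 without mating, 295 for the vasectomized-mated pool and 708 for the normal-mated pool. Levels are therefore given as log2 of the signal over that percentile, a ratio is a difference of such levels, and a raw signal cannot be set directly against one from another array. The share of spots well above background ran from 65.9% to 70.7%. The SD of log2 signal between replicate spots of a probe, with the median taken over probes printed 10 times, was 0.0541 to 0.0644. It covers the spread of spots within an array, and not differences between arrays, pools or animals. Each gene is represented by its brightest probe, and probes of 1 gene are given side by side where they differ. A gene was above background when its brightest probe was. Ovgp1, which encodes the oviduct's secreted glycoprotein, and Hoxa11, a gene of uterine stroma, were above background on all 3 arrays.

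Of the 39 genes, 33 were above background on at least 1 array and 25 on all 3. The number was 28 without mating, 28 for the vasectomized-mated pool and 30 for the normal-mated pool. The ligands Fgf3, Fgf6, Fgf15, Fgf17 and Fgf22 and the binding protein-like gene Igfbpl1 were above background on none. A gene above background on only 1 of 2 arrays has a bound in place of a ratio, written "at least", in which the dim side is the higher of its own level and the lowest level well above background on that array. Such a bound needs only the bright side, so the counts below are not counts over all 39 members.

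After normal mating most FGF and IGF genes lay at or below their level in unmated females, led by the binding proteins Igfbp1 and Igfbp3, the receptors Fgfr4 and Fgfr2, and the ligands Fgf10 and Igf2. Igfbp2 and Fgf5 were at least 2-fold higher. Of 31 genes compared, 2 were at least 2-fold higher, where 9.81% of 19304 genes on the array were, and 10 were at least 2-fold lower, where 13.2% of all genes were. Another 17 were measured within 2-fold and 2 had bounds under 2-fold. The median log2 ratio was -0.62, against -0.05 over all genes compared. At 3-fold 1 was higher (5.04% of all genes) and 7 lower (4.94%). In the IGF group 5 of 11 were lower and 1 higher, and among FGF ligands 3 of 14 were lower and 1 higher. As these are bulk samples, fewer cells of a type and less RNA per cell cannot be told apart.

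After mating with vasectomized males the genes differed in both directions. Fgf2, Igfbp2 and Igf2r were several-fold higher than in unmated females, and Igfbp1, Fgf1, Igf1r, Fgfr4, Fgf12 and Fgf10 lower. Of the lower ones, Fgf10 (-0.26) and Fgfr4 (-0.56) came within 2-fold and Fgf12 (0.43) turned sign under normexp background correction, and Igf1r (-0.85) and Fgfr4 (-0.64) came within 2-fold when the probes of a gene were averaged. Of 31 genes compared, 7 were at least 2-fold higher, where 25.8% of 19308 genes were, and 12 were at least 2-fold lower, where 16.5% were. The median was -0.65, against 0.18 over all genes, and was -0.26 under normexp and 0.32 over all 39 members with no filter on dim probes. At 3-fold 5 were higher (14.1% of all genes) and 8 lower (7.75%). The share of genes past 2-fold was larger on this array in general, at 42.4% of all genes against 23.0% for normal mating. Scaling the arrays to their spike-in probes in place of the 75th percentile moved the median of all genes to -2.57 in this comparison. Of 28 members then compared 1 was higher and 25 lower, where 217 and 16485 of 18675 genes were. Background correction with normexp gave 8 higher and 6 lower of 29, where 5751 and 1724 of 18382 genes were. Directions on this array are thus stated relative to the 75th percentile.

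The same holds for the comparison of normal with vasectomized mating, in which only the normal males supplied sperm. Of 30 genes compared, 5 were at least 2-fold higher after normal mating (14.7% of 18988 genes) and 14 at least 2-fold lower (28.0%). Of all genes 42.7% were past 2-fold in either direction. At 3-fold 1 member was higher (6.49% of all genes) and 6 lower (14.1%). The median was -0.93 against -0.27 over all genes. Scaling to the spike-in probes gave 22 higher and 1 lower of 31, where 15451 and 243 of 19499 genes were. The median over all genes was then 1.91. With normexp 1 was higher and 12 lower of 28, where 1704 and 5169 of 18356 genes were. Fgf2 (-4.71) and Igf2r (-2.83) were lower after normal mating than after mating with vasectomized males, and remained below 0 under spike-in scaling (-2.52 and -0.63). Fgf1 was higher after normal mating (2.15) in every setting tried. Igfbp3 (-1.86), Fgf7 (-1.82), Fgf11 (-1.53), Igf2 (-1.48) and Fgfr4 (-1.47) were also lower after normal mating, but spike-in scaling turned their sign, to 0.33, 0.37, 0.66, 0.71 and 0.72. The same turn of sign was found for Igfbp2 (-1.16), Fgf8 (-1.13), Igf1 (-1.12) and Fgf10 (-1.04). Fgf12 was higher after normal mating (1.49), and normexp turned it to -0.45.

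Both matings are compared with the same not mated array, so agreement between them is not independent. Among 29 genes compared in both, 7 were at least 2-fold lower after each mating: Fgf10, Fgf16, Fgfr4, Igf1r, Igfbp1, Igfbp3 and Igfbp7. Of these, Igfbp1, Igfbp3 and Igfbp7 kept both calls in each setting that gave a value, the 3-fold threshold aside. Fgf10 and Fgfr4 lost one call and Fgf16 the other under normexp, and Igf1r lost both with the mean over probes. Igfbp2 was higher after each, and none was 2-fold in opposite directions. Over all 18709 genes compared in both, 908 were lower after each mating, 1074 higher after each and 228 opposite.

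**Figure D1:**
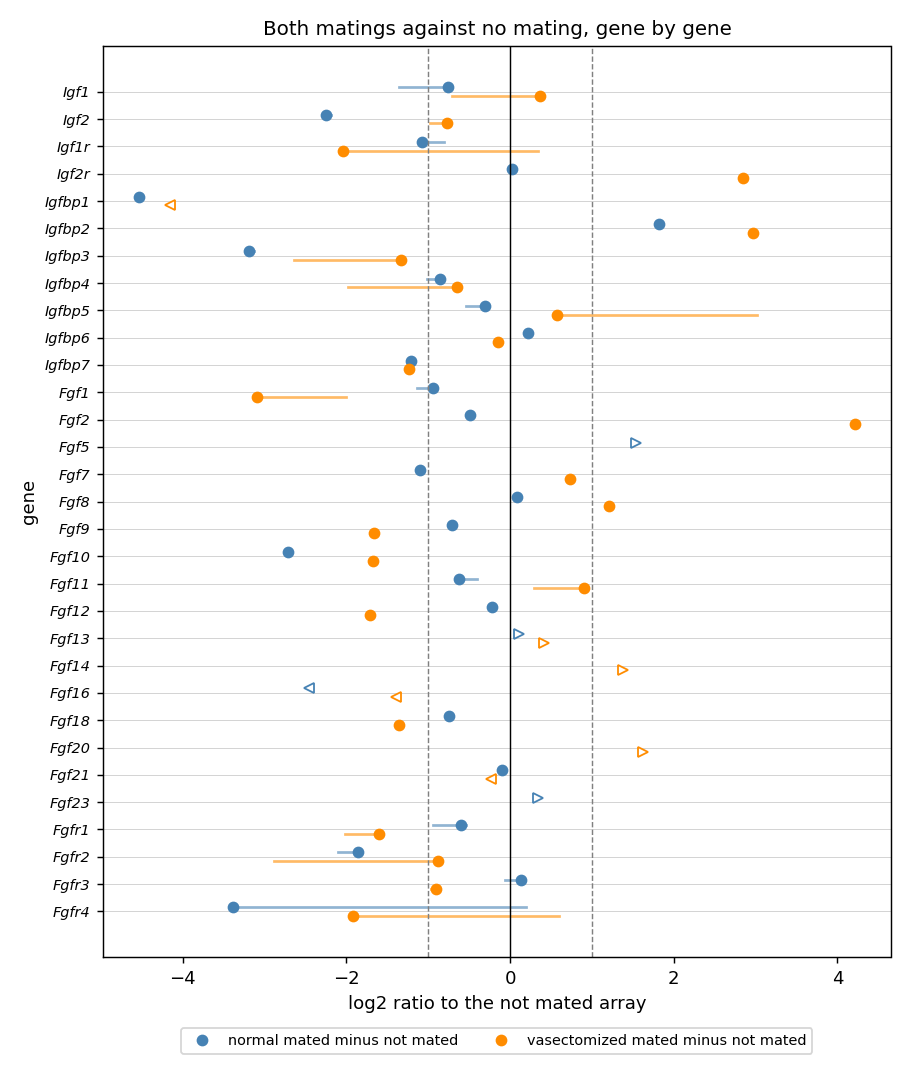
Log2 ratio to the not mated array (x axis) for the 31 FGF and IGF ligands, receptors and binding proteins above background on at least 1 array (y axis), after normal mating (blue) and after mating with vasectomized males (orange). Points are the brightest probe, horizontal lines the range over the gene's probes above background on both arrays, open triangles bounds, and dashed lines mark 2-fold. Igfbp1 lies far to the left and Igfbp2 to the right after each mating, while Fgf2 and Igf2r stand apart after mating with vasectomized males alone (4.21 and 2.85, against -0.49 and 0.02 after normal mating).

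Among the IGF binding proteins, Igfbp1 and Igfbp3 had the lowest ratios after normal mating. The signal of Igfbp1 was 308 without mating, 3.13 for the vasectomized-mated pool and 10.8 for the normal-mated pool, with the middle value not above background. Igfbp1 was thus brightest in unmated females and little above background after normal mating. Its log2 ratio was -4.53 after normal mating, a 23.1-fold lower level, and its level in the vasectomized-mated pool was lower by at least 17.9-fold. Under normexp the ratios were smaller, at -2.11 and -1.22. The probe lies at chr11:7154447-7154506 in the mm7 build of the file annotation, on the plus strand. Exon positions in that build were not used here.

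Igfbp3, whose product is the main IGF carrier in serum, had signals of 6854 without mating, 920.5 after mating with vasectomized males and 608 after normal mating. Its brightest probe, at chr11:7158599-7158658 on the minus strand, gave -3.19 after normal mating, 9.14-fold lower, and -1.33 after mating with vasectomized males. The other probe gave -3.13 and -2.64. Both probes put Igfbp3 lowest, relative to the array, in the normal-mated pool. Igfbp1 and Igfbp3 are neighbouring genes that point towards each other, and each was at least 2-fold lower after each mating.

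Igfbp2 was the one binding protein at least 2-fold higher after mating. Its signals were 779 without mating, 2065 for the vasectomized-mated pool and 2226 for the normal-mated pool. The log2 ratio was 1.82 after normal mating (3.52-fold) and 2.97 after mating with vasectomized males (7.86-fold), or 0.29 in the second case under spike-in scaling. It has 1 probe, at chr1:73093964-73094023 on the plus strand. Igfbp5, its neighbour in the genome and again pointing towards it, had signals of 12001, 6002 and 7848 in the same order. Igfbp5 stayed within 2-fold by its brightest probe, at -0.31 after normal mating and 0.57 after mating with vasectomized males. Its other probe gave -0.54 and 3.02, so after mating with vasectomized males Igfbp5 was within 2-fold by one probe and higher by the other.

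The promoters of these 4 genes are shown because the genes form 2 facing pairs, Igfbp1 with Igfbp3 and Igfbp2 with Igfbp5, and because the first pair was lower after each mating while the second pair differed. Sequences are from RefSeq for GRCm38.p6, 250 bases before to 50 after the gene's start, 5′ to 3′ on the gene's strand, at chr11:7197537-7197836 (plus) for Igfbp1, chr11:7213874-7214173 (minus) for Igfbp3, chr1:72824230-72824529 (plus) for Igfbp2 and chr1:72874816-72875115 (minus) for Igfbp5. The table holds 2 promoters for Igfbp2, of which the one at the gene's start is shown. Capitals mark every match to the motifs named after them.
Igfbp1: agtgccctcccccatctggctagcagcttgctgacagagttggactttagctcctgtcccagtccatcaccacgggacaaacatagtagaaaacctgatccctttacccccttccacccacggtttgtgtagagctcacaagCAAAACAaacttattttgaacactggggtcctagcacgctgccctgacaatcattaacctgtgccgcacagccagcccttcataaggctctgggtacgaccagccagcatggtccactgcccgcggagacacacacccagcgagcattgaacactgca
Igfbp3: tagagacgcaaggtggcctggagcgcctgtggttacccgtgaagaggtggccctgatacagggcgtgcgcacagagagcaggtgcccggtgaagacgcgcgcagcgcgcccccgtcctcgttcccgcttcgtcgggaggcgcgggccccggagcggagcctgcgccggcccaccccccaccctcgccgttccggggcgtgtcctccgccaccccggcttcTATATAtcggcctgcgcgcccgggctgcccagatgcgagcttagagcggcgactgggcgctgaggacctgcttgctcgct
Igfbp2: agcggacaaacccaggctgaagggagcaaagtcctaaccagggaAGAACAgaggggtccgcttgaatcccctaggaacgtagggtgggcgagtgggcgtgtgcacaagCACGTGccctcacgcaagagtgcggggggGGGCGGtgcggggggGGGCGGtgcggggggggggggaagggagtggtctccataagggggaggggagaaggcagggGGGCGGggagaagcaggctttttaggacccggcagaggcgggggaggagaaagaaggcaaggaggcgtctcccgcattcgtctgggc
Igfbp5: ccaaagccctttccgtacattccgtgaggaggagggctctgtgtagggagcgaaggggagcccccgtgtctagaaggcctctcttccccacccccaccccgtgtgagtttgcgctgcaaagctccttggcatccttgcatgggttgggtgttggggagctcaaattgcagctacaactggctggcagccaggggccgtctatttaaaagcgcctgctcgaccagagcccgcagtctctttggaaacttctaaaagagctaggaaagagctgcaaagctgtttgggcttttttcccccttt
Both strands were searched for TATAAA (core promoter box), GGGCGG (GC box), ACGTG (hypoxia response element core), GTAAACA (FOXO site), AGAACA (progesterone and glucocorticoid half-site), AGGTCA (oestrogen half-site), TGANTCA (AP-1 site), CAAAACA (insulin response element core) and TATATA (an alternating run), the last 2 of which were added after the sequences were seen. The Igfbp1 window holds CAAAACA, whose first base is at -108 from the gene's start, a motif in 6.28% of the 32851 promoters of that length. The Igfbp3 window holds TATATA at -30, as 5.67% of promoters do. The Igfbp2 window holds GGGCGG at -113, -98 and -37, a motif in 35.7% of promoters. It also holds AGAACA at -206, found in 18.97%, and ACGTG on each strand at -142 and -141, overlapping matches of a motif found in 19.6%. No motif searched was in the Igfbp5 window. TATAAA was in 13.6% of promoters, AGGTCA in 16.3%, TGANTCA in 7.81% and GTAAACA in 3.65%. The GC content was 54.3% for Igfbp1, 71.7% for Igfbp3, 67.0% for Igfbp2 and 56.3% for Igfbp5, against a median of 52.7% over all promoters. These are descriptions of sequence, and no occupancy was measured.

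The other 3 binding proteins were above background on every array. Igfbp7, a secreted protein of vessels and stroma with low affinity for IGFs, had signals of 61233 without mating, 8782 after mating with vasectomized males and 21451 after normal mating. Its ratios were -1.21 after normal mating and -1.23 after mating with vasectomized males, so after scaling the mated arrays lay together below the unmated one. Igfbp4 had signals of 1089, 234 and 487 in the same order and ratios of -0.86 and -0.65, both within 2-fold. Its other probe gave -1.01 and -1.98. Igfbp6, which prefers IGF2, was level across the arrays, with signals of 12294, 3753 and 11579 and ratios of 0.22 and -0.14.

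Of the ligands, Igf2 was lower after normal mating and Igf1 within 2-fold by its brightest probe. Igf2 signals were 833 without mating, 164 after mating with vasectomized males and 142 after normal mating. The ratio was -2.25 after normal mating (4.77-fold lower), with -2.19 from the other probe, and -0.77 after mating with vasectomized males, with -0.97 from the other probe. The 10 spots of the brightest probe had an SD of 0.046 to 0.0677 on the log2 scale, which covers spots on 1 array and not pools or animals. Igf1 had signals of 4459.8, 1933 and 2137. Its brightest probe gave -0.76 after normal mating and the others -1.09 and -1.35, all below 0. In the vasectomized-mated pool the brightest probe of Igf1 gave 0.36 and the others -0.64 and -0.71, so the direction for that pool depends on the probe.

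The IGF receptors differed from each other. Igf1r had signals of 1939 without mating, 159 after mating with vasectomized males and 745 after normal mating. Its ratio was -1.08 after normal mating and -2.04 after mating with vasectomized males. The other probe gave -0.81 and 0.34, and the mean over both probes was within 2-fold, at -0.94 and -0.85. A further pair of probes that RefSeq assigns to Igf1r but that carry clone names on the array gave -1.01 and -0.89 after normal mating, and -1.15 and -1.57 after mating with vasectomized males. All 4 probes were thus below 0 after normal mating, and 3 of 4 after mating with vasectomized males. Igf2r had signals of 4681, 11348 and 3850. It was level after normal mating (0.02) and 7.19-fold higher after mating with vasectomized males (2.85 on the log2 scale, or 0.16 under spike-in scaling). Igf2r has a single probe, at chr17:11399590-11399648 on the minus strand.

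**Figure D2:**
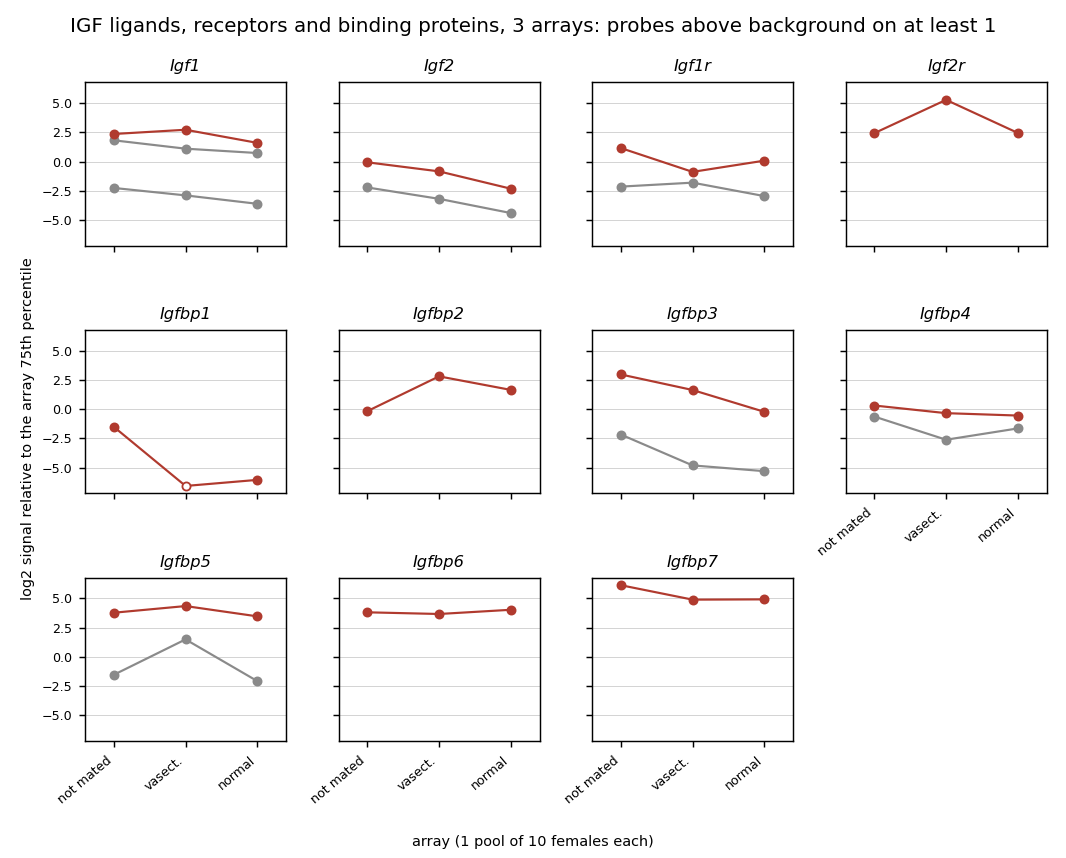
Levels of the 11 IGF genes above background on at least 1 array, as log2 signal relative to the array's 75th percentile (y axis), on the not mated, vasectomized-mated (vasect.) and normal-mated arrays (x axis). Red lines are the brightest probe of a gene and grey lines its other probes above background on any array, open symbols are not above background, and bars are SD over replicate spots where a probe has them (mostly smaller than the symbols). Igfbp1 is at -1.50 without mating and near background after each mating, Igfbp3 is at 2.97 without mating and -0.22 after normal mating, and Igf2r is highest, at 5.27, on the vasectomized-mated array.

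Of the 4 FGF receptors, 2 were at least 2-fold lower after normal mating (Fgfr2 and Fgfr4) and 2 in the vasectomized-mated pool (Fgfr1 and Fgfr4). Fgfr2, the receptor of Fgf7 and Fgf10 in epithelium, had signals of 3372 without mating, 618 after mating with vasectomized males and 755 after normal mating. All 3 of its probes were at least 2-fold lower after normal mating, at -1.86, -1.89 and -2.10. In the vasectomized-mated pool they gave -0.88, -1.16 and -2.88. Fgfr2 was therefore lower by every probe in each mated pool, by amounts that varied more in the vasectomized-mated one.

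Fgfr4 had signals of 253, 22.6 and 19.6 and a ratio of -3.39 after normal mating by its brightest probe, 10.4-fold lower (-1.71 under normexp). Its other probes, which were designed to a different transcript record, gave -0.42 and 0.20. The 3 probes gave -1.92, -0.61 and 0.60 in the vasectomized-mated pool. The lower level of Fgfr4 rests on 1 of 3 probes, at chr13:54251006-54251065, downstream of the others.

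Fgfr1, the receptor typical of mesenchyme, had signals of 201 without mating, 22.3 after mating with vasectomized males and 108 after normal mating. Its ratio was -0.60 after normal mating, and its other 3 probes gave -0.54 to -0.94. In the vasectomized-mated pool it was at -1.60, or -0.43 under normexp, with -2.02 from the other probe above background on both arrays. Fgfr3 had signals of 377, 68.3 and 335, and was level after normal mating (0.13) and at -0.90 after mating with vasectomized males, with -0.06 and -0.97 from its second detected probe. Between the matings Fgfr1 and Fgfr3 were just past 2-fold, at 1.01 and 1.03 higher after normal mating, and normexp turned Fgfr1 to -0.17.

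Of the pair that is not receptors, Fgfr1op, a centrosomal protein gene, had signals of 1270.3 without mating, 1297 after mating with vasectomized males and 1130.1 after normal mating, and was at 0.13 after normal mating and 1.60 in the vasectomized-mated pool. Its other probe gave -0.68 and 0.01, and spike-in scaling turned the 1.60 to -1.09. Fgfr1op2 was within 2-fold in each comparison, at 0.77 after normal mating and 0.08 in the vasectomized-mated pool, and its other probe gave -0.67 and -0.03, so its direction depends on the probe.

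The mesenchymal ligands Fgf7 and Fgf10 differed from each other. Fgf10 signals were 191 without mating, 20.2 after mating with vasectomized males and 23.6 after normal mating. Its ratio was -2.71 after normal mating (6.57-fold lower) and -1.67 after mating with vasectomized males, or -1.31 and -0.26 under normexp. The 10 spots of the Fgf10 probe, at chr13:115999939-115999998, had an SD of 0.0844 to 0.24 on the log2 scale. Fgf7 had signals of 69.5, 38.8 and 26.4. Fgf7 was 2.14-fold lower after normal mating (-1.10, or -0.33 under normexp) and at 0.73, within 2-fold, after mating with vasectomized males.

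Fgf2, a ligand stored on extracellular heparan sulphate that acts on many cell types, had the highest ratio of any FGF or IGF gene after mating with vasectomized males. Its signals were 42.4 without mating, 265 after mating with vasectomized males and 24.4 after normal mating. The brightest array in raw signal was thus the one with the dimmest overall scale. The log2 ratio was 4.21 (18.5-fold higher) after mating with vasectomized males, or 1.53 under spike-in scaling, and -0.49 after normal mating. Between the matings Fgf2 was 26.1-fold lower after normal mating. Replicate spots had SDs of 0.0657 to 0.155. The other Fgf2 probe was above background on no array, so the difference rests on 1 probe.

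Fgf1, Fgf9 and Fgf18 were lowest in the vasectomized-mated pool, where Fgf2 was highest. Fgf1, the ligand that binds every FGF receptor, had signals of 977 without mating, 38.6 after mating with vasectomized males and 413 after normal mating. Its ratios were -0.94 after normal mating and -3.09 (8.53-fold lower) after mating with vasectomized males, with -1.13 and -2.01 from the other probe. Fgf9 had signals of 556, 59.3 and 276 and ratios of -0.71 and -1.66, the latter -0.98 under normexp. Fgf18, a ligand known for its part in cartilage and lung growth, had signals of 3019, 399 and 1461 and ratios of -0.74 and -1.35. All 3 were within 2-fold in the normal-mated pool and past 2-fold, on the low side, in the vasectomized-mated pool.

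Of the other paracrine ligands, only Fgf8 was above background on all 3 arrays. Fgf16, a ligand of the Fgf9 subfamily, was above background on the not mated array alone, at a signal of 45.2 against 3.64 and 6.66, and was lower by at least 5.51-fold in the normal-mated pool and by at least 2.62-fold in the vasectomized-mated pool. Under normexp the ratio of Fgf16 after normal mating was -0.43. Fgf5 was above background on the normal-mated array alone, at 31.2 against 7.69 without mating and 3.97 after mating with vasectomized males, and was at least 2.91-fold higher than without mating, or at 0.67 on the log2 scale under normexp. Fgf20 was above background on the vasectomized-mated array alone, at 13.8 against 7.03 and 4.47, and at least 3.09-fold higher there than without mating. Fgf8 was above background on all 3 arrays at signals of 77.6, 60.8 and 66.7, with ratios of 0.08 after normal mating and 1.22 after mating with vasectomized males, which spike-in scaling turned to -1.47.

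The intracellular FGFs, Fgf11 to Fgf14, are not secreted and regulate sodium channels. Fgf11 had signals of 225 without mating, 143 after mating with vasectomized males and 119 after normal mating, and ratios of -0.62 and 0.91 to the not mated array. Fgf12 had signals of 71.7, 7.37 and 49.9, and was at -0.22 after normal mating and -1.71 after mating with vasectomized males, the latter turned to 0.43 by normexp. The other Fgf12 probe was above background on the normal-mated array alone. Its differences in level were -1.66 after mating with vasectomized males and 2.25 between the matings, the same signs as the brightest probe. A further probe that RefSeq assigns to Fgf12, under a clone name, was above background on the vasectomized-mated array alone. Its differences in level were 1.78 to the not mated array and -2.01 between the matings, opposite in sign to the brightest probe. Fgf14 was above background on the vasectomized-mated array alone, at a signal of 11.6 against 3.2 without mating and 1.61 after normal mating, and was at least 2.60-fold higher than without mating. Fgf13 was near background, with bounds under 2-fold against the not mated array. Of the endocrine ligands, which act with Klotho co-receptors, Fgf21 was level after normal mating (-0.10) and Fgf23 was above background on the normal-mated array alone, at a signal of 13.6.

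**Figure D3:**
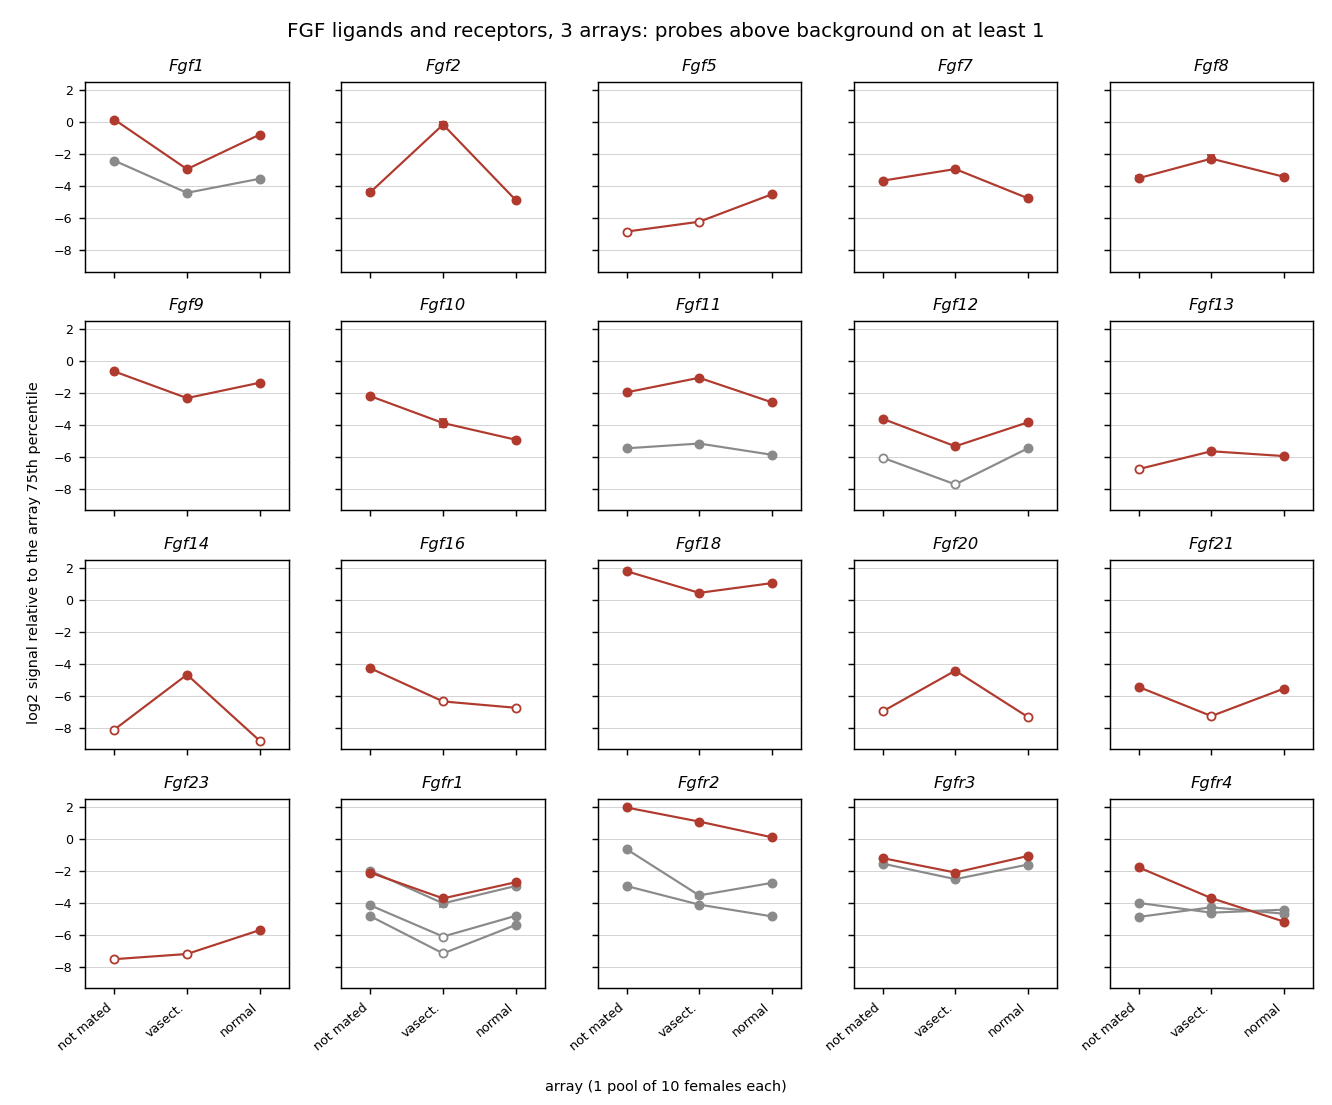
Levels of the 16 FGF ligands and 4 FGF receptors above background on at least 1 array, as log2 signal relative to the array's 75th percentile (y axis), on the not mated, vasectomized-mated (vasect.) and normal-mated arrays (x axis). Red lines are the brightest probe of a gene, grey lines its other probes above background on any array, open symbols values not above background, and bars SD over replicate spots. Fgf2 is at -4.36 without mating and -0.15 on the vasectomized-mated array, Fgf1 has its own lowest level, -2.93, on the vasectomized-mated array, and the 3 probes of Fgfr4 follow different courses.

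Genes that act with the FGFs passed 2-fold after each mating at shares near those of all genes. Of 32 genes chosen as receptor-like proteins, heparan sulphate proteins, adaptors and feedback inhibitors, 31 were on the array. After normal mating 2 of 28 compared were at least 2-fold higher and 4 lower, with a median of -0.09, where 9.81% and 13.2% of all genes were. For the mates of vasectomized males 6 of 27 were higher and 3 lower, with a median of -0.03, where 25.8% and 16.5% of all genes were. Between the matings 4 of 25 were higher after normal mating and 8 lower, with a median of 0.21, where 14.7% and 28.0% were. Dusp6, the phosphatase that FGF and ERK signalling induces and that shuts ERK off, was higher after each mating relative to the percentile used for scaling. Its signals were 8815 without mating, 15869 after mating with vasectomized males and 18196 after normal mating. Its ratio was 2.42 after mating with vasectomized males and 1.35 after normal mating. Gpc3, a glypican that modulates growth factor signals, was lower after normal mating (-1.10) and higher after mating with vasectomized males (2.38). Frs2, the adaptor that couples FGF receptors to ERK, was at 1.88 and Spred2, an inhibitor of that pathway, at -2.30 after mating with vasectomized males. Between the matings Gpc3, Gpc1 and Frs2 were lower after normal mating (-3.49, -2.50 and -2.16) and Il17rd, another inhibitor, higher (1.13). Under spike-in scaling the larger ratio of Igf2r after mating with vasectomized males, 2.85, fell to 0.16. The higher levels of Dusp6, Gpc3 and Frs2 in the vasectomized-mated pool thus hold only relative to the percentile used. Each ratio in this list that involves that pool carries the same limit of scaling.

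Of 22 genes around the IGFs, chosen as insulin receptors, adaptors, proteases of the binding proteins and RNA binding partners, 21 were on the array. After normal mating 1 of 17 compared was at least 2-fold higher and 3 lower, with a median of -0.52 (9.81% and 13.2% of all genes). In the vasectomized-mated pool 4 of 18 were higher and 4 lower, with a median of -0.67 (25.8% and 16.5% of all genes). These counts against the not mated array are near the shares over all genes. Between the matings 6 of 17 were higher after normal mating and 5 lower, with a median of -0.005 (14.7% and 28.0% of all genes). The share higher was thus above that of all genes in this comparison. Pappa, the protease that cleaves IGFBP4 and frees IGF, was lower after normal mating (-1.53), while Stc2, which inhibits PAPP-A, was higher after each mating (2.90 after normal mating and 1.39 after mating with vasectomized males). Irs1, the main adaptor of IGF1R, was lower after normal mating (-1.73), with signals of 8184, 1721 and 2000.2. After mating with vasectomized males Htra1, a protease of IGF binding proteins, was at 2.18, Foxo1 at -1.80 and Akt1 at -1.67. Between the matings Htra1, Igf2bp3 and Pik3r1 were lower after normal mating (-2.84, -2.34 and -1.93), and Akt1, Stc2 and Foxo1 higher (1.63, 1.51 and 1.40). The limit of scaling given for the FGF list holds for each ratio here that involves the vasectomized-mated pool, Stc2 and Htra1 among them.

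Cell type markers also differed between the arrays. After normal mating 5 of 8 stromal markers were at least 2-fold lower (Pdgfra at -1.94 and Hoxa11 at -3.52 among them), 6 of 6 endothelial markers and 2 of 6 smooth muscle markers were lower, and 5 of 6 epithelial markers and 4 of 6 ciliated and oviduct markers were higher. The summed level of the stromal markers, in multiples of the array's 75th percentile, was 318 without mating, 662 after mating with vasectomized males and 216 after normal mating, and that of the epithelial markers 282, 233 and 474. The endothelial sum was 10.4, 16.5 and 3.30. After mating with vasectomized males 2 of 8 stromal markers were higher and none lower, while 4 of 6 endothelial markers were lower and 1, Cdh5 (2.44), higher, so that the higher endothelial sum comes with a median ratio of -1.64. The neutrophil sum was 0.418, 89.1 and 60.3, with 6 of 6 markers higher after mating with vasectomized males and 5 of 6 after normal mating, and S100a8 and Cxcr2 not above background without mating. The macrophage sum was 3.79, 25.0 and 7.80, with 2 of 5 markers higher in the vasectomized-mated pool (Adgre1 at 3.73 among them) and a median of 0.46. After normal mating 1 of 5 macrophage markers was higher (Cd68 at 2.94) and 1 lower (Cx3cr1 at -1.54), with a median of -0.02. The smooth muscle sum was 445, 1194 and 337, with 2 of 6 markers higher in the vasectomized-mated pool (Tagln at 2.28 among them), 2 lower and a median of -0.69. The adipocyte sum was 7.42, 17.1 and 9.93, with Lep above background on no array. Of 3 adipocyte markers compared, 1 was higher in the vasectomized-mated pool (Fabp4 at 1.34) and 1 lower (Plin1 at -1.16), with a median of 0.40. The part of these cell types in the FGF and IGF ratios was not tested.

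Ovarian genes also differed between the pools. The summed level of 9 ovary and oocyte markers was 0.261 without mating, 12.9 after mating with vasectomized males and 1.29 after normal mating. Of 7 compared, 6 were higher after mating with vasectomized males and 5 after normal mating, with Hsd3b1 at 8.11 and 4.04. Fshr was above background on no array, and Bmp15, Zp3, Oosp1, Amh and Cyp11a1 were not above background without mating. The genes with the highest measured ratios of the vasectomized-mated to the not mated array, Fgf2, Igfbp2 and Igf2r, have this ovarian signal on the same array, and its part in their ratios was not tested.

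Probes of the same gene were less uniform on the vasectomized-mated array. Over 5637 genes on the array with an upstream and a downstream probe above background on all 3 arrays, the ratios of the 2 probes were at least 2-fold apart in 7.66% after normal mating and in 44.5% after mating with vasectomized males. In the latter the downstream probe had the higher ratio in 59.7% of genes. Of 14 FGF and IGF genes with such a pair, 2 were 2-fold apart after normal mating (Fgfr4 and Fgfr1op2) and 7 after mating with vasectomized males (Fgf1, Fgfr1op, Fgfr4, Igf1r, Igfbp3, Igfbp4 and Igfbp5). Ratios of single-probe genes on that array, such as Igf2r, Igfbp2 and Fgf9, have no second probe beside them.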

How the data were processed

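Cy3-labelled RNA of 3 pools, each from the utero-tubular junction of 10 females, was hybridised to single-colour Agilent arrays, 1 per group, per the labels' protocols. The values used are deposited intensity values, the processed signal of Agilent Feature Extraction, which is background-corrected within an array and has no scaling across arrays, per the file headers. Version 9.5.3 of the software is named in the submitters' processing notes, and version 10.5.1.1 in the headers. The headers give 1 slide and 1 scan for all 3 arrays. Probe positions are those of the file annotation in build mm7.

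The deposited intensities were brought to log2 levels by taking log2 and subtracting each array's 75th percentile over non-control probes. Outlier-flagged spots were left out, no spot was saturated, and spots of a probe were averaged. A gene takes the value of 1 probe, the brightest on average, chosen first among those well above background on any array. Names were updated through RefSeq (GRCm38.p6), which held 38 of the 39 symbols, and 30 of the 39 genes had a promoter sequence. Genes count as different at 2-fold. The number of arrays limits the precision: with 1 per group there is no test. R 4.3.3 with the packages limma (version 3.58.1) and data.table (version 1.17.8) gave the normexp (offset 50), quantile and cyclic loess alternatives. Python 3.11.15 with numpy 2.4.6, pandas 2.3.3 and matplotlib 3.10.9 gave tables and figures. Counting steps were tested on simulated data.

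The members, the lists of pathway genes and markers, and the alternatives were chosen with earlier results of these data known. All 39 genes are accounted for. Signals on all 3 arrays are given for IGF ligands, receptors, and genes at least 2-fold apart in any comparison. Of the pathway lists, the 3 members per direction with the largest ratio that held with normexp and quantile normalization are named.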

Additional observations from a re-analysis of the deposited data

Results flagged for a closer look

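Fgf2 and Fgf7 lay on opposite sides of the not mated array after the 2 kinds of mating, with at least 1 of the differences past 2-fold. The log2 ratio of Fgf2, normal mated minus vasectomized mated, was -4.71. It comes from 4.21 after mating with vasectomized males and -0.49 after normal mating. Under normexp the 2 values were 3.10 and -0.02, so Fgf2 was then level with the not mated array after normal mating. The log2 ratio of Fgf7 was -1.82, from 0.73 and -1.10 in the same order. Scaling to spike-in probes put Fgf7 on the same side after each mating, at -1.96 and -1.59, and turned the difference to 0.37. Under normexp background correction Fgf7 was within 2-fold after each, at 0.97 and -0.33. Each group had 1 array and both ratios share the not mated array, so the difference was not tested.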

How the results depend on the processing

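No paired analysis was possible because each group has 1 array, and for the same reason no array could be left out. Of the calls at 2-fold, 8 of 12 after normal mating, 9 of 19 after mating with vasectomized males and 4 of 19 between the matings held in every setting that gave a value, the 3-fold threshold aside. Of these, 8, 5 and 2 had a value in all 10 settings. Scaling to spike-in probes, leaving out Fgfr1op and Fgfr1op2, and choosing the probe on the 2 arrays compared were added after seeing the data, and the last changed no count of members.

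After normal mating, the number higher was 1 of 31 with normexp, where 1367 of 19756 genes were. It was 1 of 27 with genes above background on both arrays only (1641 of 17968 genes). With no filter it was 4 of 39 (2641 of 27643 genes), and at 3-fold 1 of 31 (973 of 19304 genes). The number lower was 17 of 29 with spike-in scaling, where 5321 of 18960 genes were. The median was -0.43 with normexp, -0.51 with cyclic loess, -0.72 with the percentile over probes detected on all arrays, -0.71 with genes above background on both arrays only, -1.20 with spike-in scaling and -0.71 without Fgfr1op and Fgfr1op2. In the vasectomized-mated pool, the number higher was 1 of 28 with spike-in scaling, where 217 of 18675 genes were. The number lower was 6 of 29 with normexp (1724 of 18382 genes) and 25 of 28 with spike-in scaling (16485 of 18675 genes). The median was -0.26 with normexp, -0.82 with the percentile over detected probes, -0.77 with genes above background on both arrays only, 0.32 with no filter, -0.85 with the mean over probes, -3.51 with spike-in scaling and -0.77 without Fgfr1op and Fgfr1op2. Between the matings, the number higher was 1 of 28 with normexp (1704 of 18356 genes) and 1 of 30 at 3-fold (1233 of 18988 genes). With spike-in scaling it was 22 of 31 (15451 of 19499 genes). The number lower was 6 of 30 at 3-fold (2680 of 18988 genes) and 1 of 31 with spike-in scaling (243 of 19499 genes). The median was -0.39 with quantile normalization, -0.36 with cyclic loess, -0.81 with the percentile over detected probes, -0.31 with the mean over probes and 1.82 with spike-in scaling. The cause was not tested.

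The sign turned with normexp for Fgf12 after mating with vasectomized males (0.43) and, between the matings, for Fgf12 (-0.45) and Fgfr1 (-0.17). With spike-in scaling it turned after mating with vasectomized males for Fgf8 (-1.47) and Fgfr1op (-1.09). Between the matings it turned for Fgf10 (1.15), Fgf11 (0.66), Fgf7 (0.37), Fgf8 (1.06), Fgfr1op (0.73), Fgfr4 (0.72), Igf1 (1.07), Igf2 (0.71), Igfbp2 (1.03) and Igfbp3 (0.33). The median of all genes after normal mating was -0.56 with spike-in scaling. Signals near background on any array limit the ratios of Igfbp1, Fgf5, Fgf13, Fgf14, Fgf16, Fgf20, Fgf21 and Fgf23. Dim signals on the vasectomized-mated array also limit Fgf10, Fgf12, Fgfr1 and Fgfr4 (20.2, 7.37, 22.3 and 22.6). Under normexp their ratios of that array to the not mated one were -0.26, 0.43, -0.43 and -0.56.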
